A study of Canis lupus familiaris with 34 samples.

Results

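The genes described here are 10 integrin subunits of stromal and lymphoid cells, measured in canine tumors and splenic hematomas on Affymetrix Canine_2 arrays: the alpha subunits ITGA1, ITGA2, ITGA4, ITGA5, ITGAL and ITGAV and the beta subunits ITGB1, ITGB2, ITGB3 and ITGB7. They were chosen by name, as the probe sets to which the array annotation gives exactly 1 gene symbol that equals one of these names. The 10 genes are 10 of 15115 on the array and are read by 23 of its 42860 probe sets. Where a gene has several, the value given is that of the probe set with the highest mean over all 34 arrays.

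The cultured cells were 10 hemangiosarcoma lines, 3 splenic hematoma cultures and 5 osteosarcoma lines. Golden Retrievers gave 6 of the hemangiosarcoma lines (Tucker, Journey, Frog, ChadG8, ChadG6 and ChadG4). The others came from a Golden Retriever x Great Pyrenees (DD1), a Rottweiler (Joey), a Portuguese Water Dog (ChadP9) and a Dalmation (Dal4), as the labels spell it. The hematoma cultures came from a Golden Retriever (Pippin), a Standard Poodle (Baxter) and a Keeshond (Kylie), and all 5 osteosarcoma lines from Golden Retrievers. The primary cells were 1 acute lymphoblastic leukemia from a Golden Retriever mix and, all from Golden Retrievers, 2 chronic lymphocytic leukemias, 6 T-zone lymphomas, 6 diffuse large B cell lymphomas and 1 marginal zone B cell lymphoma. The labels give no age and no treatment that differs between groups, and 1 array for each line, culture or patient. The study's methods state that the hemangiosarcoma and hematoma tissues were cultured in a way that favors endothelial cells, that the hematoma cells were at low passage and that the dogs Frog and Journey shared recent ancestors. Every array of a stromal tumor therefore comes from cells grown in dishes and every array of a lymphoid tumor from cells taken directly, so that culture and lineage cannot be told apart.

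Integrins are receptors made of an alpha and a beta subunit that tie a cell to the matrix around it or to another cell, and they signal in both directions across the membrane. ITGB1 is the shared partner of ITGA1 and ITGA2, which bind collagen, of ITGA5, which binds fibronectin, and of ITGA4, which binds VCAM1, while ITGAV pairs with ITGB1, ITGB3 or ITGB5 and binds vitronectin. ITGB2 and ITGB7 are leukocyte subunits: ITGAL with ITGB2 forms LFA-1, the receptor for ICAM1 and ICAM2, and ITGA4 with ITGB7 forms the gut homing receptor of lymphocytes.

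The values are log2 intensities, so that a difference of 1 is a 2-fold change, and they ranged from 2.03 to 14.98 over all probe sets, with array medians between 5.57 and 5.77. The number of arrays in a group limits the precision of each value. The pan-leukocyte markers averaged 4.86 to 6.24 in the cultures and 10.80 to 12.65 in the lymphoid tumors, and the fibroblast and mural markers averaged 9.20 to 11.23 in the cultures and 5.55 to 7.76 in the lymphoid tumors. Of the defining endothelial markers, PECAM1 and CDH5 lay below the array median in all 18 cultures and VWF lay above it in 1 of the 10 hemangiosarcoma lines. Of all 15 endothelial markers, 2 to 8 lay above the array median in a hemangiosarcoma line, 4 to 6 in a hematoma culture and 4 to 7 in an osteosarcoma line, and the list averaged 4.93 to 5.61, 4.96 to 5.57 and 5.19 to 5.59 in these groups. KDR, ERG, EGFL7 and ROBO4 had group means between 6.02 and 7.61 in the cultures, above the array medians. The osteoblast markers averaged 4.45 to 4.99 in the osteosarcoma lines, which is also below the array medians. The 2 arrays labelled chronic lymphocytic leukemia had T cell markers at 9.78 and 10.63 and B cell markers at 5.76 and 5.74. Over all probe sets, the median correlation of an array with others of its group was lowest among the hemangiosarcomas for ChadG4 and Dal4 (0.955 for both, against 0.969 to 0.979 for the other 8), among the osteosarcomas for OSCA71 (0.941) and among the T-zone lymphomas for Rose (0.945).

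**Figure D1:**
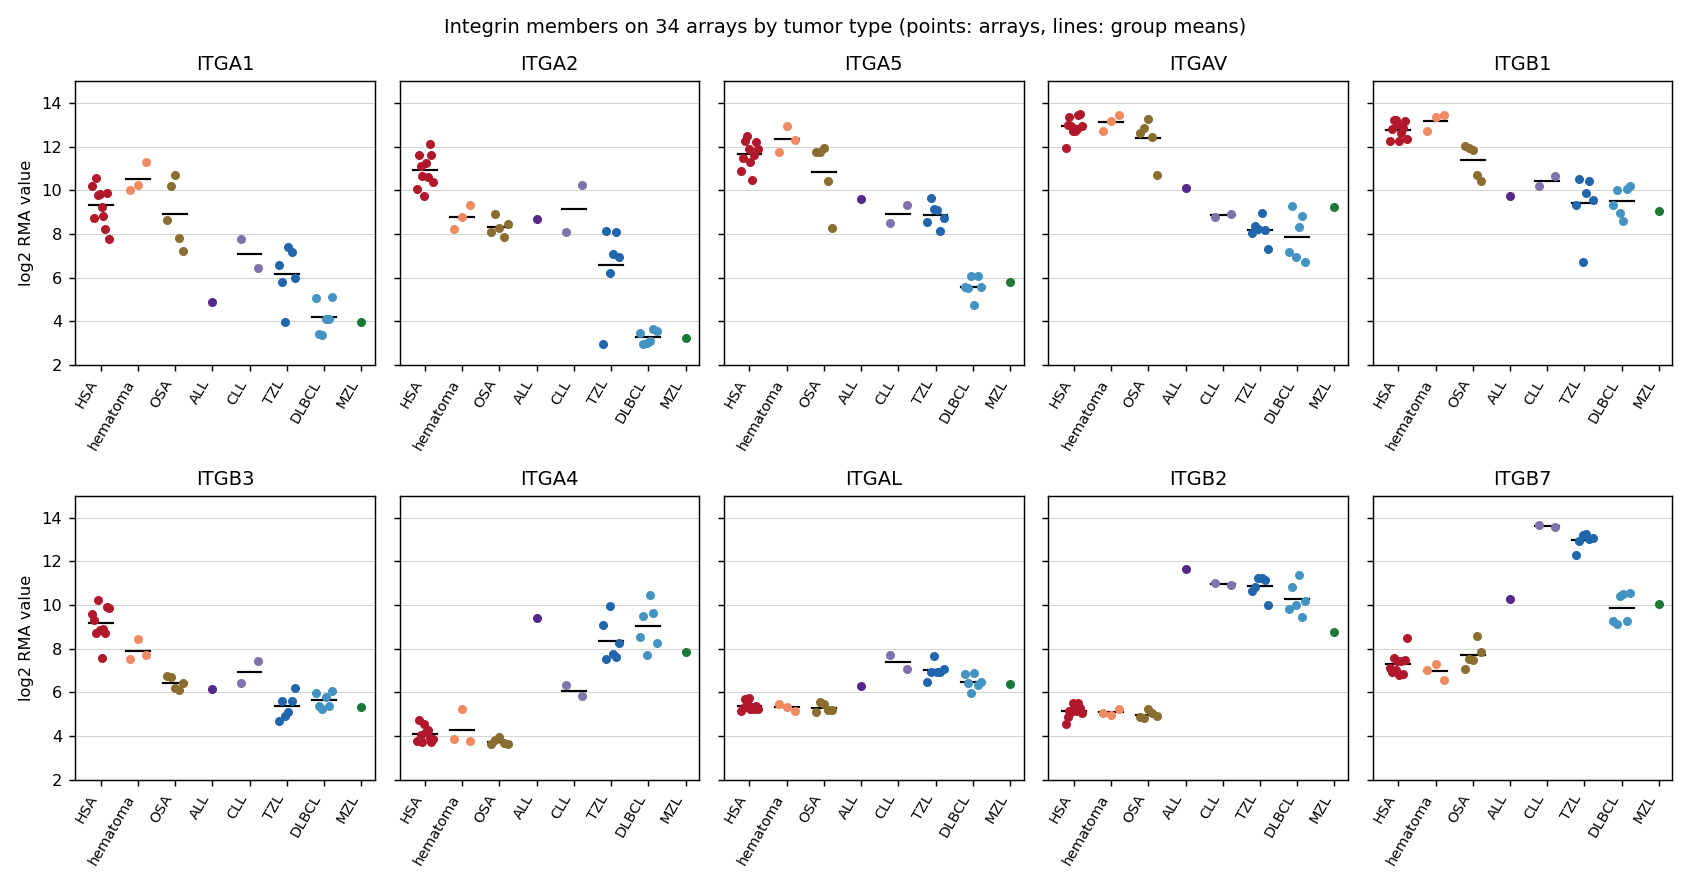
Log2 RMA value (y axis) of the 10 integrin genes on each of the 34 arrays, by tumor type (x axis; HSA hemangiosarcoma, OSA osteosarcoma, ALL and CLL acute lymphoblastic and chronic lymphocytic leukemia, TZL T-zone, DLBCL diffuse large B cell and MZL marginal zone lymphoma). Points are arrays and black lines are group means; ITGB2 does not exceed 5.49 in any culture and does not fall below 8.75 in any lymphoid tumor.

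The first comparison asked which of these subunits differ between cultured stromal cells and lymphoid tumors. All 10 passed the test, and 5 of them had values that did not overlap, as did 7.59% of all genes tested. The 10 genes were chosen with earlier results of these data known, so their count is not an independent test. In the 18 cultures against the 16 lymphoid tumors, ITGA1, ITGA2, ITGA5, ITGAV, ITGB1 and ITGB3 were higher and ITGA4, ITGAL, ITGB2 and ITGB7 were lower at an adjusted p of 0.001 (limma, Benjamini-Hochberg adjustment over all probe sets tested). In the same comparison, 21.7% of 9339 genes tested were called higher and 21.5% were called lower. The median difference over the 10 integrins was 2.69 on the log2 scale, and over all genes tested it was -0.08. With 6 members higher and 4 lower, the median of the integrins follows the make-up of the list and describes neither set. An array reads a mixture of cells, and fewer cells of a type cannot be told apart from less RNA per cell.

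Among the leukocyte subunits, ITGB2, the beta chain of LFA-1, had the largest difference of the 10 genes. It lay between 4.54 and 5.49 in the cultures (median 5.09) and between 8.75 and 11.66 in the lymphoid tumors (median 10.82). It did not pass the array median in any culture and passed it in every lymphoid tumor. ITGB2 therefore met the filter on dim probe sets through the lymphoid tumors alone. The difference was -5.48 (SE 0.19, adjusted p = 1.46e-23), 44.5-fold lower in the cultures. That fold rests on culture values that are all below the array medians. A further ITGB2 probe set gave -3.87, and the remaining one was at background on all arrays.

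ITGA4, the alpha chain for VCAM1, lay between 3.63 and 5.25 in the cultures (median 3.84) and between 5.82 and 10.45 in the lymphoid tumors (median 8.25), a difference of -4.34 (SE 0.31, adjusted p = 1.28e-14). The groups did not overlap, and the lymphoid values nearest to the cultures were those of the 2 chronic lymphocytic leukemias, 6.32 and 5.82. ITGA4 too was below the array median in every culture and met the filter through the lymphoid tumors alone. ITGB7, its gut homing partner, lay between 6.58 and 8.58 in the cultures (median 7.35) and between 9.13 and 13.66 in the lymphoid tumors (median 11.42), with a difference of -4.16 (SE 0.41, adjusted p = 7.02e-11). ITGAL, the alpha chain of LFA-1, had the smallest difference of the 10. Its values were 5.08 to 5.73 in the cultures (median 5.29) and 5.96 to 7.69 in the lymphoid tumors (median 6.85), -1.42 apart (SE 0.13, adjusted p = 4.33e-12). ITGAL exceeded the array median in 2 hemangiosarcoma lines, in no other culture and in every lymphoid tumor, which were enough to meet the filter. Its other probe set gave -0.58, was above the array median on 1 of 34 arrays and was not tested. All 4 leukocyte subunits and, among the others, ITGAV had ranges that did not overlap.

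Among the subunits that were higher in culture, ITGAV, the alpha chain of the vitronectin receptors, had the largest difference. It lay between 10.71 and 13.49 in the cultures (median 12.89) and between 6.71 and 10.12 in the lymphoid tumors (median 8.32). The culture nearest to the lymphoid range was OSCA71 and the lymphoid tumor nearest to the cultures was the acute lymphoblastic leukemia. The difference was 4.47 (SE 0.27, adjusted p = 8.67e-17), 22.2-fold.

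The collagen receptors differed by similar amounts. ITGA2 lay between 7.85 and 12.11 in the cultures (median 9.90) and between 2.95 and 10.25 in the lymphoid tumors (median 4.93), a difference of 4.25 (SE 0.67, adjusted p = 1.16e-06). Its groups overlapped, because 1 chronic lymphocytic leukemia (Forrest) at 10.25 exceeded 10 of the 18 cultures. ITGA1 lay between 7.24 and 11.29 in the cultures (median 9.80) and between 3.35 and 7.76 in the lymphoid tumors (median 5.10), with a difference of 4.08 (SE 0.43, adjusted p = 2.92e-10). Here 16 of the 18 cultures lay above every lymphoid tumor. In the dog gene table (UU_Cfam_GSD_1.0) ITGA2 and ITGA1 are near neighbours with a single gene, LOC100687687, between them.

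ITGA5, the fibronectin receptor chain, lay between 8.29 and 12.95 in the cultures (median 11.75) and between 4.72 and 9.63 in the lymphoid tumors (median 8.30). Of the cultures, 17 exceeded every lymphoid tumor, the exception being OSCA71, and the difference was 4.03 (SE 0.47, adjusted p = 3.71e-09). ITGB1, the common beta chain, was above the array median on all 34 arrays. It lay between 10.41 and 13.46 in the cultures (median 12.65) and between 6.71 and 10.65 in the lymphoid tumors (median 9.79), 2.88 apart (SE 0.30, adjusted p = 2.75e-10). The other ITGB1 probe set, dim on most arrays, went the other way by -0.54 and was not tested. ITGB3, the partner of ITGAV, lay between 6.10 and 10.24 in the cultures (median 8.56) and between 4.70 and 7.42 in the lymphoid tumors (median 5.60), with a difference of 2.49 (SE 0.36, adjusted p = 2.61e-07).

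These counts depended on which cultures were compared. With the hemangiosarcoma lines alone against the lymphoid tumors, all 10 genes passed, and with the hematoma cultures alone 9 did, ITGA2 having a difference of 3.19 and an adjusted p of 0.0771. With the osteosarcoma lines alone 6 passed, and the 4 that did not were ITGA2 (2.73, adjusted p = 0.05), ITGA5 (3.33, adjusted p = 0.00283), ITGB1 (1.80, adjusted p = 0.00284) and ITGB3 (0.74, adjusted p = 0.0561). These 3 fits were added after the values had been seen. The hybridization controls averaged 9.25 to 10.82 on the arrays of the cultures and 10.04 to 11.32 on those of the lymphoid tumors, and their part in these differences was not tested.

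**Figure D2:**
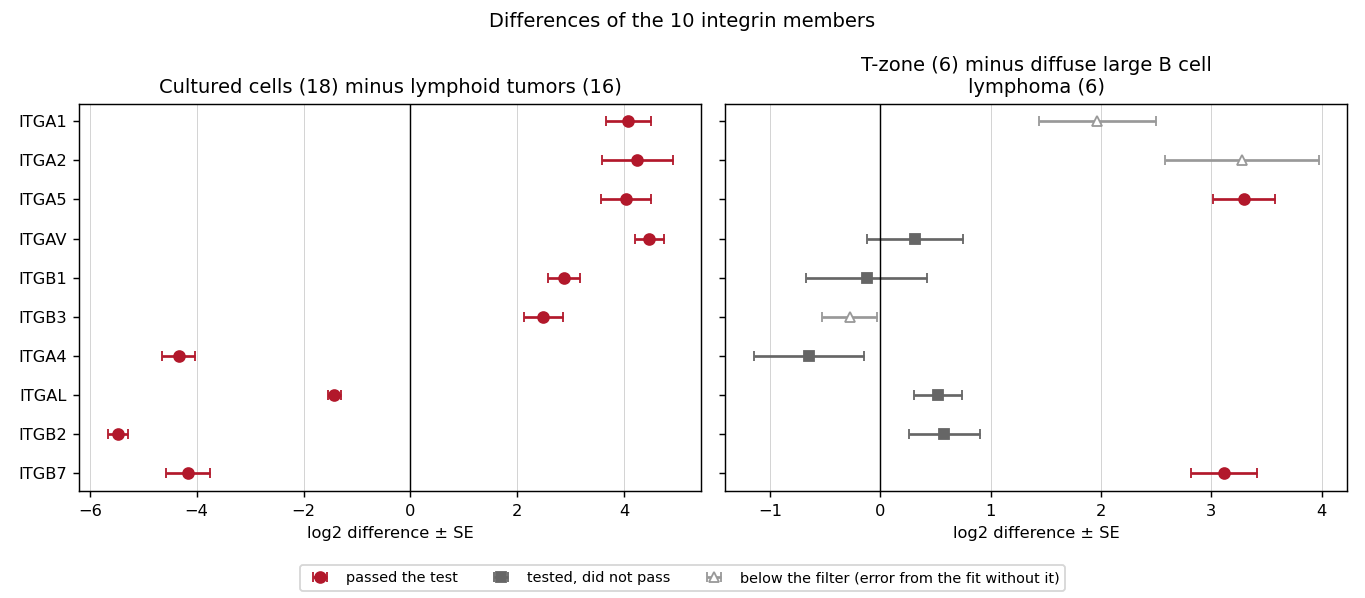
Log2 difference with its standard error (x axis) of each of the 10 integrin genes (y axis), cultured cells minus lymphoid tumors on the left and T-zone minus diffuse large B cell lymphoma on the right. Circles passed the test, squares were tested and did not pass, and open triangles fell below the filter on dim probe sets, with the error taken from the fit without that filter; all 10 points on the left are circles, and on the right ITGA5 and ITGB7 are.

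The partners, ligands and adaptors of these subunits were read from lists. Of 15 other integrin subunits on the array, 9 were tested in cultures against lymphoid tumors, and 2 were higher and 2 lower, with a median difference of -0.22. Over all genes tested, 21.7% were higher and 21.5% lower, so these subunit counts were near the general share. ITGB5, a further partner of ITGAV, was higher by 4.54 (SE 0.21, adjusted p = 4.90e-20). It lay between 10.83 and 12.73 in the cultures and between 6.62 and 9.86 in the lymphoid tumors. ITGA7, a laminin receptor chain that pairs with ITGB1, was higher by 2.62 (SE 0.51, adjusted p = 3.64e-05). ITGB4, the epithelial partner of ITGA6, was lower by 0.84 in the cultures, and ITGAE, the other partner of ITGB7, was lower by 0.43.

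Of 27 ligand genes on the array 19 were tested, and 15 of these were higher in the cultures and 1 was lower, with a median difference of 6.0. The collagen chains COL1A2 and COL1A1 were higher by 8.07 and 7.87, the matricellular CCN1 by 7.51 and THBS1 by 7.29, and FN1, the ligand of ITGA5, by 6.49. ICAM2, which LFA-1 binds, was the ligand that was lower, by 5.09, and ICAM1, also bound by LFA-1, was higher by 2.67. Of 35 adaptor and signaling genes 29 were tested, and 15 were higher and 7 lower, with a median of 0.64. The kindlins, which switch integrins on by binding the beta tail, divided sharply. FERMT2, the kindlin of adherent cells, lay between 10.48 and 13.27 in the cultures and between 3.73 and 6.63 in the lymphoid tumors, and FERMT3, that of blood cells, lay between 4.12 and 4.86 in the cultures and between 10.19 and 11.77 in the lymphoid tumors. The differences were 7.57 (SE 0.24) for FERMT2 and -6.61 (SE 0.13) for FERMT3. SKAP1 and RASGRP2, which act in integrin activation in T cells and platelets, were lower in the cultures by 6.39 and 5.59.

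**Figure D3:**
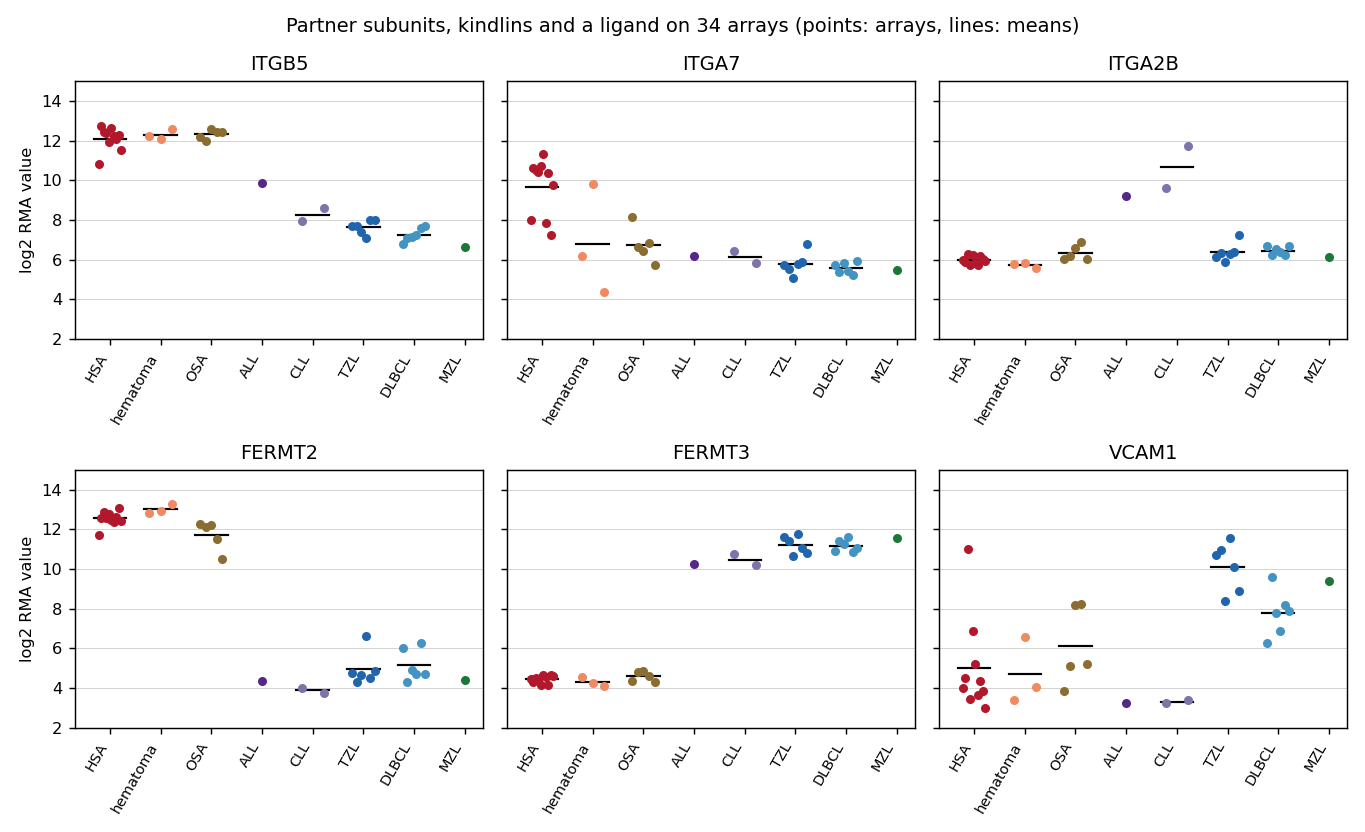
Log2 RMA value (y axis) of the subunits ITGB5, ITGA7 and ITGA2B, the kindlins FERMT2 and FERMT3 and the ligand VCAM1 on each of the 34 arrays, by tumor type (x axis, abbreviated as before). Points are arrays and black lines are group means; FERMT2 and FERMT3 are high in opposite sets of arrays, and ITGA2B exceeds 9 on the 3 leukemia arrays alone.

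The second comparison set the hemangiosarcoma lines against the hematoma cultures, which differ in malignancy while both come from blood-filled lesions. The groups also differ in breeds, and the study's methods name cell lines for the tumors and low passage cultures for the hematomas. The part of either in these differences was not tested. At an adjusted p of 0.1, 7 of the 10 integrins were tested and 1, ITGA2, was higher. ITGA4, ITGAL and ITGB2 were below the filter. Of 9761 genes tested, 0.143% were called higher, 0.113% were called lower and 1.69% had groups that did not overlap.

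ITGA2 ranged over 9.72, 10.88 and 12.11 (lowest, median and highest) in the 10 hemangiosarcoma lines and read 8.22, 8.79 and 9.31 in the hematoma cultures Pippin, Baxter and Kylie. Every hemangiosarcoma line lay above every hematoma culture. The difference was 2.13 (SE 0.44, adjusted p = 0.0979), 4.38-fold. A second ITGA2 probe set gave 2.15 (SE 0.45, adjusted p = 0.117), and the remaining one was flat at background on all 34 arrays. The call was lost in 18 of 25 alternative settings, with adjusted p up to 0.396, and the difference stayed between 1.47 and 2.52 in all of them. Leaving out 1 array lost it in 11 of 13 cases, with adjusted p between 0.068 and 0.396, and it was kept only without ChadG4 or without Journey.

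ITGB3 ranged over 7.56, 9.09 and 10.24 in the hemangiosarcoma lines and read 7.53, 8.43 and 7.70 in Pippin, Baxter and Kylie. All lines but Tucker exceeded the highest hematoma culture, but the difference of 1.27 did not pass (SE 0.45, adjusted p = 0.401). ITGA1 was placed the other way. It ranged over 7.75, 9.51 and 10.58 in the lines and read 10.02, 10.25 and 11.29 in the cultures, with 8 of 10 lines below the lowest hematoma culture and a difference of -1.22 (SE 0.53, adjusted p = 0.49). The remaining tested members differed by -0.67 (ITGA5, SE 0.39), -0.39 (ITGB1, SE 0.25), -0.19 (ITGAV, SE 0.28) and 0.34 (ITGB7, SE 0.30), with adjusted p between 0.582 and 0.837. Of the lists, 10 other subunits, 21 ligands and 29 adaptors were tested here and 0 of each passed, with medians of 0.14, -0.01 and 0.00 against 0.04 over all genes. Over all probe sets, limma called 62 here, and 2259 had an unadjusted p under 0.05.

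**Figure D4:**
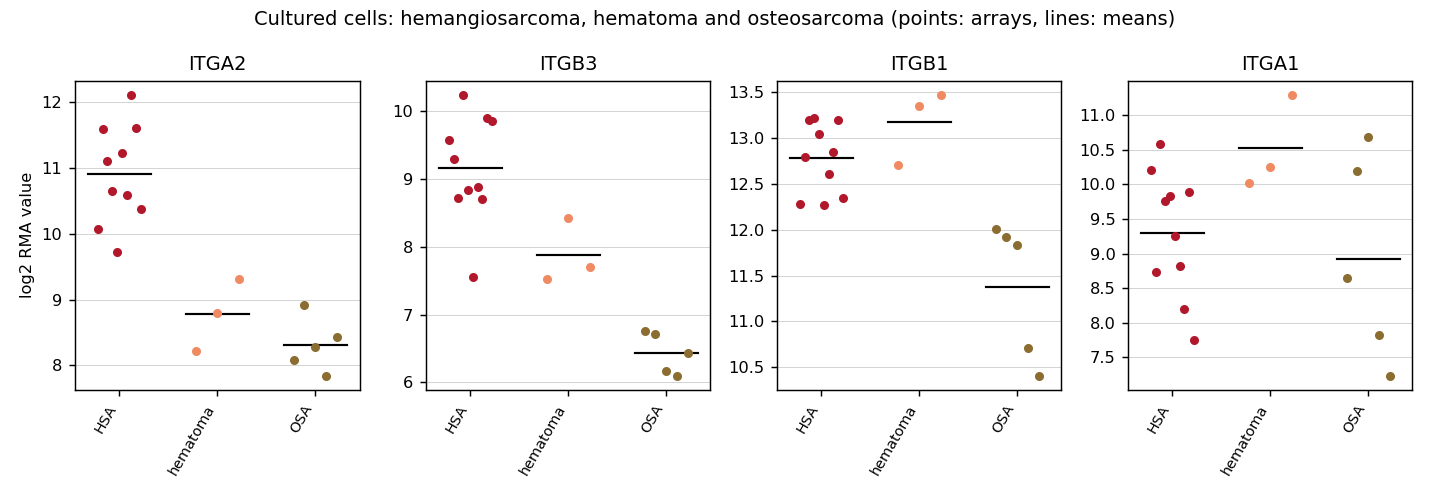
Log2 RMA value (y axis) of ITGA2, ITGB3, ITGB1 and ITGA1 in the 10 hemangiosarcoma lines (HSA), the 3 hematoma cultures and the 5 osteosarcoma lines (OSA). Points are arrays and black lines are means; the lowest hemangiosarcoma value of ITGA2, 9.72, lies above all hematoma and osteosarcoma values.

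The 6 Golden Retriever hemangiosarcoma lines and the 5 osteosarcoma lines share breed and material, and were set side by side. Of 7 members tested, 3 were higher in hemangiosarcoma at an adjusted p of 0.05, none was lower, and these 3 had groups that did not overlap. Among 9330 genes tested, 8.1% were called higher, 7.1% were called lower and 8.57% did not overlap.

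ITGB3 ranged over 7.56, 9.07 and 10.24 in the 6 hemangiosarcoma lines and read 6.75, 6.71, 6.17, 6.10 and 6.44 in OSCA20, OSCA23, OSCA59, OSCA75 and OSCA71. The 5 osteosarcoma lines lay close to each other, all below the hemangiosarcoma lines, and the difference was 2.60 (SE 0.39, adjusted p = 0.00209), 6.08-fold. ITGB3 has no second probe set on the array, and the one it has matches several transcripts. ITGA2 ranged over 9.72, 10.88 and 11.59 in the hemangiosarcoma lines and read 8.08, 8.92, 8.28, 7.85 and 8.44 in the same osteosarcoma lines, 2.41 apart (SE 0.33, adjusted p = 0.00142). Its second probe set gave 2.61 (adjusted p = 0.00155). ITGB1 ranged over 12.27, 12.92 and 13.22 in the hemangiosarcoma lines and read 12.01, 11.92, 11.83, 10.71 and 10.41 in the osteosarcoma lines, with a difference of 1.42 (SE 0.33, adjusted p = 0.0161). The groups were separated by a narrow margin, between Tucker at 12.27 and OSCA20 at 12.01.

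ITGB1 has a second, dim probe set that went against this direction. It lay above the array median on 6 of 34 arrays, including OSCA23 at 5.79 and OSCA59 at 6.41, and its difference was -1.85 without a test. Read from the mean of both probe sets, ITGB1 differed by -0.21 (adjusted p = 0.554). ITGA1, ITGA5 and ITGAV differed by 0.81, 0.88 and 0.40 with adjusted p of 0.374, 0.338 and 0.529. OSCA71 was the lowest osteosarcoma line for each of these, at 7.24, 8.29 and 10.71. ITGB7 differed by -0.56 (SE 0.25, adjusted p = 0.144), and 1 of its other probe sets was called lower, by 1.26. All 3 calls held when any 1 array was left out and with all 10 hemangiosarcoma lines in place of the 6. The hybridization controls averaged 9.47 to 9.78 on these hemangiosarcoma arrays and 10.00 to 10.82 on the osteosarcoma arrays. Actin probe sets at the 3′ and 5′ ends differed by 1.45 to 2.52 on the hemangiosarcoma arrays and by 1.80 to 3.27 on the osteosarcoma arrays. The part of both measures in these differences was not tested.

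Of the other subunits 1 of 10 tested was higher in the Golden Retriever hemangiosarcoma lines, ITGA7, by 3.50 (SE 0.56, adjusted p = 0.00289). It lay between 7.98 and 11.31 there and between 5.75 and 8.15 in the osteosarcoma lines, with ChadG4 at 7.98 the line that overlapped. Among 18 ligands, 3 were higher and none was lower: the laminin chains LAMB1 (2.14), LAMC1 (1.96) and LAMA4 (1.59). The medians were -0.04 for the subunits and 0.44 for the ligands, and -0.01 over all genes. Of 28 adaptors 5 were higher, including APBB1IP by 1.85, ACTN1 by 1.36 and PTK2B by 0.90, and 1 was lower, SHARPIN, an integrin inhibitor, by 1.17, with a median of 0.32.

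Set against all 21 other tumors, the 6 Golden Retriever hemangiosarcoma lines had 2 members higher at an adjusted p of 0.001 and none lower, among 10 tested. In that comparison 4.92% of 10491 genes were called higher, 2.32% were called lower and 2% did not overlap. It shares its 6 hemangiosarcoma arrays and 5 osteosarcoma arrays with the comparison above. ITGB3 ranged over 7.56, 9.07 and 10.24 in the lines and over 4.70, 5.99 and 7.42 in the other tumors. The groups did not overlap, the highest other tumor being a chronic lymphocytic leukemia, and the difference was 3.16 (SE 0.33, adjusted p = 9.37e-08). ITGB1 ranged over 12.27, 12.92 and 13.22 in the lines and over 6.71, 10.05 and 12.01 in the other tumors, again without overlap, with a difference of 2.80 (SE 0.49, adjusted p = 1.29e-04). Its dim probe set gave -1.25 (adjusted p = 0.00686), and the mean of both gave 0.77 (adjusted p = 0.0943).

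The other members had larger differences in several cases but also spread widely over the 21 tumors. ITGA2 differed by 4.50 (SE 1.01, adjusted p = 0.00141), with 4 of 6 lines above every other tumor and a second probe set called higher (4.05, adjusted p = 1.72e-04), and ITGB2 by -4.15 (SE 1.01, adjusted p = 0.00246). ITGA1, ITGA5 and ITGAV differed by 3.55, 3.42 and 3.48, and ITGA4, ITGB7 and ITGAL by -3.09, -3.47 and -0.98, with adjusted p between 0.00155 and 0.0171. Second probe sets of ITGA5 (3.58, adjusted p = 6.66e-04) and ITGAV (4.05, adjusted p = 4.81e-04) were called higher. The hybridization controls averaged 9.47 to 9.78 on the 6 hemangiosarcoma arrays and 10.00 to 11.32 on those of the other tumors, without overlap, and their part in these differences was not tested. Among the lists, ITGA7 was the 1 of 10 other subunits that was higher (4.26). Of 21 ligands 6 were higher, led by CCN2 (5.71), COL3A1 (5.52) and LAMA4 (5.36), and ICAM2 was lower by 4.61. Of 33 adaptors 4 were higher, with FERMT2 first (6.03), and 3 lower, with SKAP1 first (-5.07).

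T-zone lymphoma is a tumor of T cells and diffuse large B cell lymphoma one of B cells, and both were primary cells of Golden Retrievers. The T cell markers averaged from 10.3 up to 10.995 in T-zone lymphoma and 7.45 to 8.27 in diffuse large B cell lymphoma, and the B cell markers averaged 6.86 to 9.03 in T-zone lymphoma and 9.38 to 9.79 in diffuse large B cell lymphoma. Of 7 integrins tested at an adjusted p of 0.05, ITGA5 and ITGB7 were higher in T-zone lymphoma and none was lower. Of 9237 genes tested, 9.54% were called higher, 10.1% were called lower and 8.84% did not overlap.

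ITGA5 ranged over 8.12, 8.92 and 9.63 in T-zone lymphoma and over 4.72, 5.57 and 6.08 in diffuse large B cell lymphoma. Every T-zone lymphoma lay well above every B cell tumor, and the difference was 3.29 (SE 0.28, adjusted p = 6.85e-06), 9.81-fold. ITGA5 exceeded the array median on 2 of the 6 diffuse large B cell arrays, so that fold rests on values near the array medians. The 6 T-zone arrays alone were enough to meet the filter. A second ITGA5 probe set was also called higher, by 2.51. ITGB7 ranged over 12.31, 13.04 and 13.23 in T-zone lymphoma and over 9.13, 9.82 and 10.53 in diffuse large B cell lymphoma, a difference of 3.12 (SE 0.30, adjusted p = 1.72e-05), 8.68-fold. Both of its other probe sets were called higher too, by 3.43 and 3.49. No array lay between the groups for either gene.

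The collagen receptors ITGA2 and ITGA1 fell below the filter in this comparison. ITGA2 read 2.95, 8.14, 6.21, 7.07, 8.09 and 6.92 in the T-zone lymphomas Newman, Niki, Rose, Shilo, Thunder and Fire, and lay between 2.95 and 3.65 in diffuse large B cell lymphoma. All T-zone lymphomas but Newman lay well above that range, and Newman lay at its lower end. The difference was 3.28, with an adjusted p of 0.0103 in the fit without the filter. ITGA1 ranged over 3.98, 6.28 and 7.40 in T-zone lymphoma and over 3.35, 4.09 and 5.13 in diffuse large B cell lymphoma, with 5 of 6 T-zone lymphomas above the highest B cell tumor, Rose being the exception. Its difference was 1.97, with an adjusted p of 0.0338 without the filter. ITGB3 lay between 4.70 and 6.19 in T-zone lymphoma and between 5.23 and 6.04 in diffuse large B cell lymphoma, close to the array medians, and was not tested.

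The remaining subunits were close in both lymphomas. The LFA-1 chains differed by 0.52 (ITGAL, SE 0.22, adjusted p = 0.119) and 0.58 (ITGB2, SE 0.32, adjusted p = 0.246), with 5 of 6 T-zone lymphomas above every B cell tumor for ITGAL. ITGA4 lay between 7.54 and 9.96 in T-zone lymphoma and between 7.72 and 10.45 in diffuse large B cell lymphoma, a difference of -0.65 (SE 0.50, adjusted p = 0.43). ITGAV differed by 0.31 (SE 0.43) and ITGB1 by -0.12 (SE 0.55). For ITGB1 the T-zone lymphoma Rose was at 6.71 and the other 5 were between 9.32 and 10.52. Actin probe sets at the 3′ and 5′ ends differed by -0.30 to 4.03 in T-zone lymphoma and by 0.67 to 3.46 in diffuse large B cell lymphoma. Without the 3 arrays highest in that measure (Thunder, Fire and Chieftain), ITGA5 and ITGB7 differed by 3.52 and 3.21 and both still passed.

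Among 9 ligands tested, VCAM1, the partner of ITGA4, was higher in T-zone lymphoma by 2.33 (SE 0.60, adjusted p = 0.0149) and ICAM1 by 1.34 (SE 0.36, adjusted p = 0.0201), while the microfibril gene FBN1 was lower by 3.16 (SE 0.64, adjusted p = 0.00435). The median over the ligands was -0.05 and over all genes -0.04. The fibroblast and mural markers averaged 5.55 to 6.79 in T-zone lymphoma and 5.67 to 7.76 in diffuse large B cell lymphoma, and their part in these differences was not tested. Of 24 adaptors 7 were higher, with ZYX (2.90), FLNA (1.93) and FYB1 (1.79) first, and 1 was lower, the kinase LYN (-1.60), with a median of 0.41. None of 9 other subunits passed, with a median of -0.01. ITGAE and the ITGB7 ligand MADCAM1 differed by -0.01 and -0.05.

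The leukemias and the marginal zone lymphoma (1 or 2 arrays of each type) are described by their values, and no test was run on them. ITGB7 was highest in the 2 chronic lymphocytic leukemias (13.66 in Maddle and 13.58 in Forrest), followed by T-zone lymphoma, and read 10.25 in the acute lymphoblastic leukemia and 10.04 in the marginal zone lymphoma. ITGA5 read 8.49 and 9.32 in the chronic leukemias and 9.62 in the acute one, all within the T-zone range, and 5.78 in the marginal zone lymphoma, which is inside the diffuse large B cell range. ITGA2 was also higher in the 3 leukemias, at 8.07, 10.25 and 8.67, than in the marginal zone lymphoma, at 3.22. Its T-zone range was 2.95 to 8.14, and Forrest and the acute leukemia lay above it. For all 3 genes the value of the marginal zone lymphoma was within the diffuse large B cell range.

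ITGA4 was lowest among the lymphoid tumors in the chronic lymphocytic leukemias, at 6.32 and 5.82, and read 9.40 in the acute leukemia and 7.83 in the marginal zone lymphoma. ITGB2 was highest in the acute leukemia, at 11.66, and lowest in the marginal zone lymphoma, at 8.75. ITGB3 was highest among the lymphoid tumors in Forrest, at 7.42, against 6.43 in Maddle and 6.14 in the acute leukemia. Platelet markers were read beside these values. The 6 on the array averaged 6.66 in the acute leukemia and 7.61 and 8.38 in Maddle and Forrest, against 4.94 to 5.40 in T-zone, 4.87 to 6.28 in diffuse large B cell and 6.12 in marginal zone lymphoma. In the acute leukemia, GP9, GP1BA, GP6 and GFI1B lay above their diffuse large B cell means, and SELP and PPBP did not. ITGA2B, the platelet partner of ITGB3, read 9.20, 9.63 and 11.75 on the 3 leukemia arrays and at most 7.24 on any other. ITGA2 is also a platelet collagen receptor, and the part of platelet RNA in its leukemia values was not tested.

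Ranked by group mean, all 3 cultured groups came before every lymphoid group for ITGA1, ITGA5, ITGAV and ITGB1 and after every one for ITGA4, ITGAL, ITGB2 and ITGB7. For ITGA2 the order was hemangiosarcoma, chronic lymphocytic leukemia, hematoma, acute lymphoblastic leukemia, osteosarcoma, T-zone, diffuse large B cell and marginal zone lymphoma, and each group overlapped the next. For ITGB3 it was hemangiosarcoma, hematoma, chronic lymphocytic leukemia, osteosarcoma, acute lymphoblastic leukemia, diffuse large B cell, T-zone and marginal zone lymphoma, with a gap between hematoma and chronic lymphocytic leukemia and between acute lymphoblastic leukemia and diffuse large B cell lymphoma. Cultured groups that were neighbours in an order overlapped, except hemangiosarcoma and osteosarcoma for ITGB1. The 3 cultured groups were at 5.14, 5.08 and 4.97 for ITGB2 and at 5.38, 5.32 and 5.29 for ITGAL (hemangiosarcoma, hematoma and osteosarcoma), with all their ranges overlapping.

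Subunits of one heterodimer were set against each other across the arrays of a group, in 11 pairs. In T-zone lymphoma ITGA4 and ITGB1 ran in opposite directions, with Pearson's r = -0.93 (exact permutation p = 0.00139, adjusted over the 11 pairs 0.0153) and Spearman's rho = -1.0 (exact p = 0.00278, adjusted 0.0166; n = 6). ITGB1 was 10.52, 10.42, 9.86, 9.57, 9.32 and 6.71 in Niki, Thunder, Shilo, Fire, Newman and Rose, in which ITGA4 was 7.54, 7.62, 7.76, 8.25, 9.10 and 9.96. Without Newman and Rose r was -0.92 over 4 arrays, with an exact permutation p of 0.0417, the smallest that 4 arrays can give, and an adjusted p of 0.229. In diffuse large B cell lymphoma the same pair had r = -0.15 (exact permutation p = 0.801, n = 6).

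In the 10 hemangiosarcoma lines ITGA5 and ITGB1 had r = 0.72 (permutation p = 0.0231, adjusted 0.127) and rho = 0.85 (permutation p = 0.00301, adjusted 0.0166), so that the rank correlation passed and Pearson's did not. Without ChadG4 and Joey r was 0.75 and rho 0.93 (exact p = 0.00223, adjusted 0.0246; n = 8). ITGAV and ITGB1 had r = 0.65 (permutation p = 0.0359, adjusted 0.131) and rho = 0.59 (permutation p = 0.0813, adjusted 0.298). None of the other pairs passed. ITGAV with ITGB3 had r = 0.01, ITGA2 with ITGB1 0.22 and ITGA1 with ITGB1 0.43 in the lines (adjusted permutation p from 0.579 to 0.971). For ITGAL with ITGB2, r was 0.29 in T-zone and 0.44 in diffuse large B cell lymphoma, and for ITGA4 with ITGB7 it was -0.16 and -0.20 (adjusted exact permutation p from 0.828 to 0.883). These pairs share their arrays, so that differences in array quality act on both genes of a pair.

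**Figure D5:**
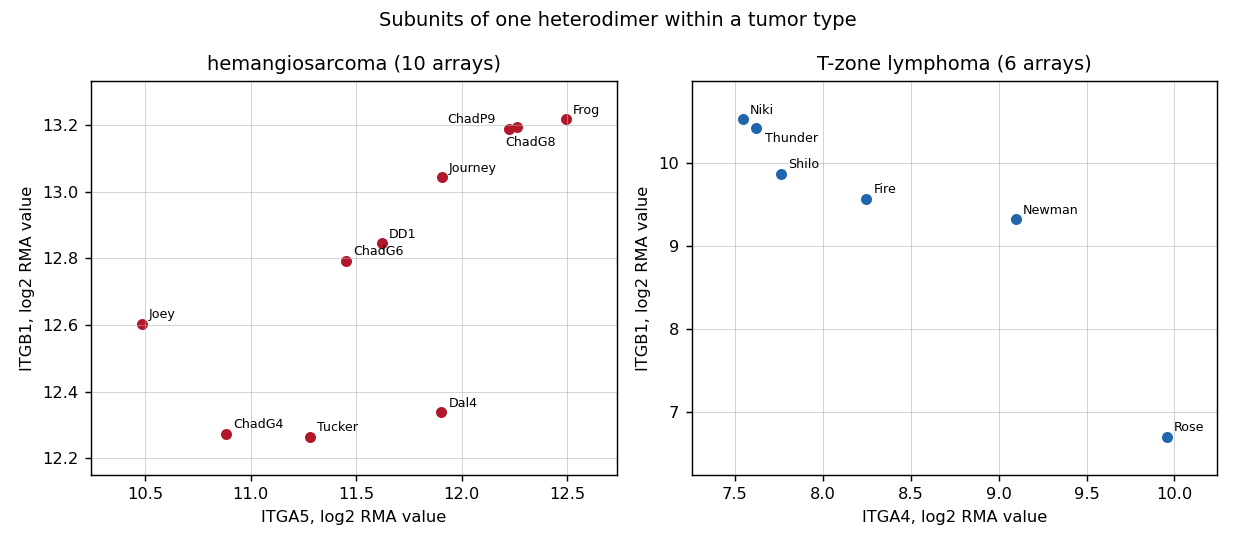
Log2 RMA value of ITGB1 (y axes) against ITGA5 in the 10 hemangiosarcoma lines and against ITGA4 in the 6 T-zone lymphomas (x axes). Each point is 1 array with its name; Pearson's r is 0.72 on the left and -0.93 on the right, where Rose lies apart at an ITGB1 value of 6.71.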

How the data were processed

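The deposited table holds log2 values that the authors made from 34 Affymetrix Canine_2 arrays by RMA (background correction, quantile normalization and summary per probe set); the versions are not given in the sources used here. No scanner files were used. Of 43035 probe sets, 175 controls were left out, and of the other 42860, 29254 have 1 gene symbol, 439 several and 13167 none. Groups came from the sample labels. Dim probe sets were filtered out of each test, which required values over the array median on a number of arrays equal to the size of the smaller group or larger. The comparisons were fitted with limma 3.58.1 (lmFit, eBayes) in R 4.3.3, with Benjamini-Hochberg adjustment over all probe sets tested and the false discovery rates that the study's methods used, or 0.05 and 0.001 where they give none. Calls over genes count 1 probe set per gene, that with the highest mean. Correlations used exact permutations, or 100000 at 10 arrays, two-sided, in scipy 1.17.1. The fits were tested on simulated data. The labels do not say whether arrays share a scan, so no batch was fitted. P-values measure the spread between these samples.

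The members and the 11 lists (175 genes, 161 on the array) were chosen with earlier results of these data known. All 10 integrins are named, with up to 4 passing genes per list and comparison, by size, and list genes that pair with or are bound by a member. Alternatives were other filters, centering, quantile normalization, array weights, a trend with a robust prior, other probe sets, other sets of arrays and each array left out. Gene neighbours came from RefSeq, in which all 10 integrins matched by gene number. No sequences are given.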

Additional observations from a re-analysis of the deposited data

Results flagged for a closer look

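In groups of 4 to 10 arrays, 5 of the 40 sets of values examined had an array far from the rest, where chance would give about 1 in 20. The T-zone lymphoma Newman was lowest for ITGA2 at 2.95 (next 6.21) and lowest for ITGB7 at 12.31 (next 12.93), and its B cell markers averaged 9.03, the highest among the T-zone lymphomas. The T-zone lymphoma Rose was lowest for ITGB1 at 6.71 (next 9.32). Among the hemangiosarcoma lines, ChadG4 was lowest for ITGAV at 11.95 (next 12.71) and Dal4 was highest for ITGB7 at 8.50 (next 7.55); without both lines, ITGA2 was still the member called against hematoma.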

How the results depend on the processing

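Small groups, the absence of scanner files and the joint change of culture and lineage limit these results; another background correction was not run, since summarized values do not allow it. No paired analysis was possible because each array comes from a different line, culture or patient. The cause of each change below was not tested.

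Against hematoma, 0 members were called in place of 1 without the filter, with centering, quantile normalization or array weights, without probe sets that match several transcripts, with all 34 arrays in 1 fit and with the Golden Retriever lines only, and 0 to 1 with 1 array left out. Against all other tumors, 10 in place of 2 were called with array weights and with all 34 arrays, 1 without probe sets that match several transcripts, and 2 to 6 with 1 array left out (6 without OSCA23, 4 without OSCA20, OSCA59 or OSCA75, 3 without OSCA71 or Forrest). Against osteosarcoma, 1 in place of 3 was called without such probe sets and 3 with any 1 array left out. Without such probe sets ITGB3 could not be read in any comparison, so its call is missing there. Cultures against lymphoid tumors gave 6 in place of 10 with osteosarcoma alone, a choice made after seeing the data, and 10 with any 1 array left out. The count was 8 without probe sets that match several transcripts and 8 with the mean of all probe sets of a gene. T-zone against diffuse large B cell lymphoma gave 4 in place of 2 without the filter and 2 to 4 with 1 array left out (3 without Newman or Rose, 4 without any 1 B cell tumor, where the filter needs 1 array fewer). Of the Pearson correlations, 0 in place of 1 passed without the 2 arrays farthest from the median, and of the rank correlations 1 (ITGA5 with ITGB1) in place of 2. With the 4 arrays then left in a lymphoma, the smallest exact permutation p is 0.0417 for r and 0.0833 for rho. The rank correlation of ITGA4 with ITGB1 could therefore not pass there, and Pearson's had little room to.

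These differences turned: ITGAV against hematoma (0.0268 with array weights), ITGB1 against other tumors (-1.25) and osteosarcoma (-0.21), read from other probe sets, ITGA1 (-0.0648 with array weights) and ITGAV (-0.0152 without OSCA71) against osteosarcoma, and ITGB1 in T-zone against diffuse large B cell lymphoma (0.19 with array weights, 0.26 as a mean of probe sets, 0.41 without Rose, 0.014 without Chieftain). Without 2 arrays, r turned to -0.95 (ITGAL with ITGB2) and 0.33 (ITGA4 with ITGB7) in T-zone and to -0.12 (ITGAL with ITGB2) and 0.22 (ITGA4 with ITGB1) in diffuse large B cell lymphoma. Each of these r values rests on 4 arrays.

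Over all probe sets, counts moved by over 1.5 times as follows. Against hematoma, 62 became 33 with array weights, 39 without probe sets that match several transcripts, 26 with gene means, 179 with all arrays, 39 without ChadG6, 200 without Pippin and 7 without Baxter. Against other tumors, 1988 became 10272, 1091, 761 and 7343 under the first 4 of these, 931 to 1247 without ChadG4, ChadG6, ChadG8, Frog or Journey and 3040 without OSCA20. Against osteosarcoma, 3619 became 6524, 1987 and 1314 under the first 3, 6365 with all 10 hemangiosarcoma lines, 2377 without ChadG6 and 2141 without Frog. For cultures, 9565 became 5850, 3476, 3372 (hematoma alone) and 4199 (osteosarcoma alone). For T-zone lymphoma, 4018 became 2345 and 1854.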
